A study of Mus musculus with 14 samples.

Results

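The proteins of the cytosolic ribosome are encoded by the genes named Rpl for the large subunit and Rps for the small subunit. The members here were the rows whose gene symbol is Rpl or Rps followed by a number, or Rplp0, Rplp1 or Rplp2, with at most a closing a, l or x. The rule used the symbol alone and found 82 of the 49585 genes in the deposited tables, 31 of the small and 51 of the large subunit. RefSeq lists 80 of them as protein coding and 2 (Rps4l and Rpl6l) as pseudogenes. Copies with other endings, such as those named -ps, and core ribosomal genes with other names, such as Rpsa, Fau and Rack1, are no members and are given beside them.

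RNA was sequenced from mouse hind limb skeletal muscle in 12 libraries, 3 in each of 4 groups: wild type (WT) without injury, Myf6 knockout (KO) without injury, WT after injury, and KO after injury. The Myf6 gene (alias MRF4) encodes a muscle regulatory transcription factor. Library names carry an animal number with L for the uninjured and R for the injured limb, read here as 2 limbs of the same 3 WT and 3 KO animals. The sources used here do not give the Myf6 allele, the mouse strain, age or sex, how the injury was made or how long before sampling. WT and KO animals carry different numbers, so genotype cannot be told apart from litter or cohort. A single ChIP-seq library labelled Myf6, made with a Flag antibody from primary myotubes, had 1 control and gave a list of binding peaks.

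Each ribosome needs most of its proteins in equal numbers, and cells are known to adjust the members together. Their mRNAs start with a terminal oligopyrimidine (TOP) tract, a run of C and T at the transcription start through which the kinase complex mTORC1 controls their translation. In skeletal muscle, ribosome content is known to rise in growth and regeneration. A few members have paralogs with restricted expression: Rpl3l in striated muscle and Rpl10l and Rpl39l in testis.

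Myf6 itself checked the labels. It was at 46.2, 25 and 111 RPM in the WT and 1.86, 3.46 and 2.27 RPM in the KO uninjured libraries, and at 47.9, 121 and 72.5 RPM in the WT and 3.32, 2.88 and 3.02 RPM in the KO injured libraries. Every KO library was below every WT library of the same limb. The 10 muscle fibre markers together held between 112717 and 182081 RPM in all 12 libraries, and none of them was at 0. Values are reads scaled to a total of 1000000 reads on genes per library (RPM). Library totals ran from 1880087 reads (WT uninjured replicate 2) to 49392472 (KO injured replicate 3), and mitochondrial genes took between 3.63% and 23.2% of the reads.

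The start regions of 60 members were in the RefSeq promoter table (build GRCm38.p6). They are shown first, because the longest C and T run around the start had a higher median in members than in the tested genes. Each window runs from 40 bases before to 20 bases after the start, on the strand of the gene. Capitals mark the longest run of C and T between 20 bases on either side of the start. The run of Rps25 is cut at that limit, and C and T letters continue before it. Such a run need not lie at the start itself, and in Rps25, Rps15a, Rps27l and Rps13 it does not. Whether the runs are TOP tracts was not tested. Shown are a pair with long runs (Rpl34 and Rpl35), 3 with middle runs (Rps25, Rps15a and Rps27l) and 1 with a short run (Rps13). All were lower in KO without overlap in injured muscle, so they cannot show how run length goes with the change. Long runs not shown include those of Rpl7a (21), Rpl27a (20) and Rpl15 (17). With -ps rows added, their log2 changes between KO and WT were 0.14, -0.23 and 0.23 in uninjured muscle. In injured muscle they were 0.01, -0.29 and 0.21.
Rpl34 (chr3:130730318-130730377, minus strand, run of 20): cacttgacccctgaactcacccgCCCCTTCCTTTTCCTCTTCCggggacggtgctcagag
Rpl35 (chr2:39005112-39005171, minus strand, run of 18): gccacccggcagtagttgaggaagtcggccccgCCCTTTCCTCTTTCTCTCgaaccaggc
Rps25 (chr9:44407674-44407733, plus strand, run of 12): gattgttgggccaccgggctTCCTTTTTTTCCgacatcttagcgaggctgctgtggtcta
Rps15a (chr7:118116128-118116187, minus strand, run of 10): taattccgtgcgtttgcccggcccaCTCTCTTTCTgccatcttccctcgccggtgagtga
Rps27l (chr9:66946046-66946105, plus strand, run of 9): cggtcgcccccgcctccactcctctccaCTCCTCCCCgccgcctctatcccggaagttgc
Rps13 (chr7:116334171-116334230, minus strand, run of 6): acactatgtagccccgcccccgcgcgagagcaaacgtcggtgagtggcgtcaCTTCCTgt
In Rpl34 the run was 20 bases long and in Rps13 it was 6. The window of Rpl34 shown is the start with the longer run of the 2 that RefSeq lists.

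Over the 60 members the longest run had a median of 7.5 bases, against 5 over the 10004 tested genes with a window. It reached 8 bases or more in 30 members (50% of 60), in 19.7% of the tested genes and in 18.4% of all 27025 genes of the table. In the full windows of 300 bases, searched on both strands, CCGGAA, the core of ETS factor sites, was in 53.3% of members and 30.3% of tested genes. Its reverse complement ends in letters other than C and T, but its first letters can lie inside a run. TATAAA was in 11.7% of members and 9.09% of tested genes, GGGCGG in 58.3% and 68%, and AAGATGGC in 8.33% and 5.15%. CAGCTG, an E-box of the kind that muscle regulatory factors bind, was in 6.67% of members (Rpl35, Rpl6, Rpl10l and Rpl3l) and 18.5% of tested genes. These are matches of letters and no measured sites.

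Long and short runs were set beside the change between genotypes. The 30 members with a run of 8 or more had a median log2 change between KO and WT of -0.23 in uninjured muscle, and the 29 of them tested in injured muscle had -0.29. The members with shorter runs had medians of -0.17 and -0.19. These medians describe the members and were not tested.

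Together the 82 members took a few percent of all reads. Their RPM summed to 27670, 22890 and 29050 in the WT uninjured libraries (mean 26537 ± 3233, SD, n = 3), and to 28161, 27410 and 16768 in the KO uninjured libraries (mean 24113 ± 6372, SD, n = 3). The third KO library was the lowest of all 12, and the other two KO libraries lay inside the WT range. After injury the sums were 24027, 22892 and 25702 RPM in WT (mean 24207 ± 1414, SD, n = 3) and 20681, 23308 and 20464 RPM in KO (mean 21484 ± 1584, SD, n = 3). The KO injured range overlapped the WT injured range in 1 library. As a share of reads the members held 1.68% (95% Wilson interval 1.67 to 1.68) in the lowest library and 2.91% (2.90 to 2.91) in the highest. These intervals cover counting error only.

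**Figure D1:**
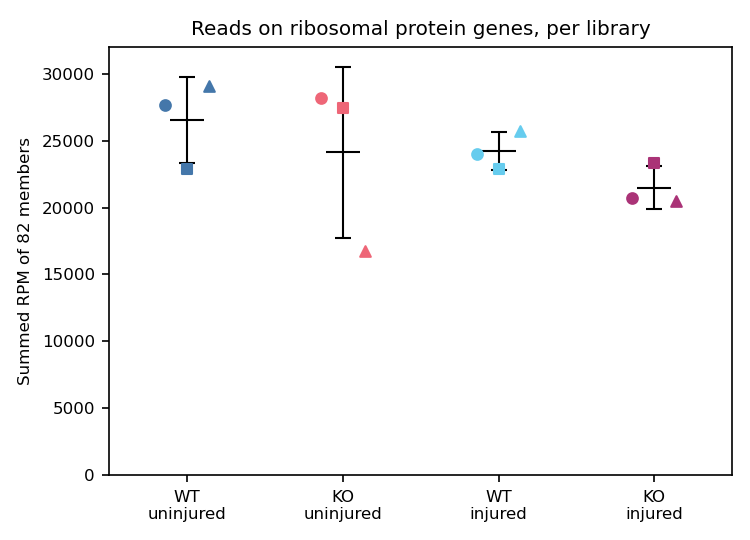
Summed RPM of the 82 ribosomal protein genes (y axis) in each of the 12 libraries, grouped by genotype and limb. Points are libraries (circle, square and triangle for replicates 1, 2 and 3), and bars show the mean and SD of 3 libraries. KO uninjured replicate 3 lies at 16768 RPM, below all others.

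Between the limbs of each animal the sums moved in both directions. In WT, the log2 ratio of the injured over the uninjured limb was -0.20, 0.00 and -0.18 in animals 1, 2 and 3. In KO it was -0.45, -0.23 and 0.29. Of 78 members at 1 RPM or more on average, 68 were lower in the injured limb of KO animal 1 and 1 was lower in that of KO animal 3. The share of all genes was not computed for single animals, so these counts do not set the members apart. In all 3 WT animals 17 members were lower in the injured limb and 4 were higher, where 8.43% of 12529 genes were lower and 17.6% higher. In all 3 KO animals no member was lower and 4 were higher, where 3.81% of genes were lower and 19.7% higher. No member was lower in the injured limb of all 6 animals, and none was higher in all 6.

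How closely a member followed the rest of the family varied. For each member the correlation (Pearson r) over the 12 libraries between its log2(RPM + 1) and the mean of the other members was computed. These libraries share animals, depth and the scaling to total reads, so r is a description, and no r of other genes is given beside it. It was over 0.8 for 30 of 81 members and negative for 7. Rpl32 (r = 0.97), Rpl39 (0.93), which lines the exit tunnel of the ribosome, and Rpl12 (0.92), at the base of the stalk, followed the family most closely. Rpl32 was at 562, 387 and 648 RPM in the WT and 462, 450.2 and 211 RPM in the KO uninjured libraries, and at 384, 395 and 459.9 RPM in the WT and 275, 381 and 279 RPM in the KO injured libraries. KO uninjured replicate 3 was its lowest library.

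Rpl23a (r = -0.32), which sits at the tunnel exit, Rpl15 (-0.28) and Rpl8 (-0.22) followed it least. Rpl23a was at 18.4, 9.57 and 29.9 RPM in the WT and 26.5, 10.8 and 42.0 RPM in the KO uninjured libraries, and at 20.1, 38.6 and 26.6 RPM in the WT and 36.6, 13.4 and 35.7 RPM in the KO injured libraries. It was highest in KO uninjured replicate 3, where most members were lowest. That library held the lowest value of 51 of 78 members, and the median member lay 0.54 below its own mean there on the log2 scale. The same values were not computed over all genes, so they do not set the members apart from other genes.

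**Figure D2:**
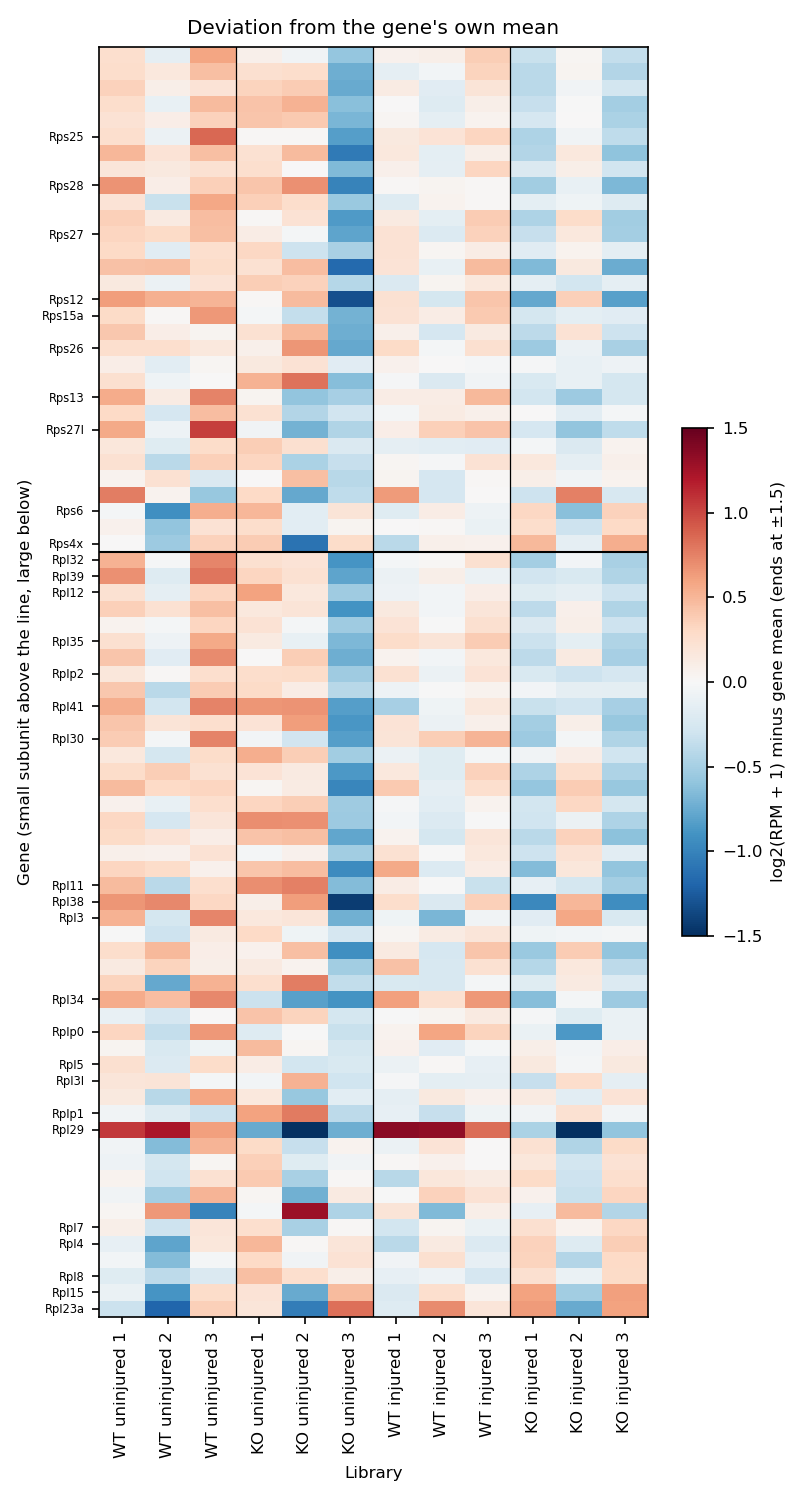
Log2(RPM + 1) of 78 members minus each gene's own mean over the 12 libraries (colour, red above and blue below the mean). Rows are genes, ordered within each subunit by their correlation with the other members (some rows are labelled), and columns are libraries. The KO uninjured replicate 3 column is blue for most genes, with 51 members lowest there, and the Rpl29 row separates WT from KO. Genes other than members are not shown and were not counted in this way.

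Reads are not divided by gene length here, so read totals of different members are not compared as levels. Most reads fell on Rplp1 (mean of 12 libraries 939 RPM), Rpl4 (782 RPM) and Rpl3l (766 RPM). At the other end, Rpl10l had no read in any library, which allows at most 3 reads or 1.60 RPM in the shallowest library. Rpl6l (mean 0.114 RPM) and Rpl24 (mean 0.144 RPM) also stayed under 1 RPM. Of the 82 members, 72 averaged over 100 RPM and 77 reached 1 RPM in all 12 libraries. Rpl24 encodes a core large subunit protein, and it had 0 to 10 reads per library. The handling of reads that match several copies is not given in the sources used here, and its part in this value was not tested.

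Genotype was first compared in uninjured muscle, over 79 members that reached 1 RPM in at least 3 of the 6 libraries. No member passed an adjusted p under 0.05 in limma, where 0.281% of the 12460 genes tested did (35 genes). At an unadjusted p under 0.05 there were 7 members (8.86%), 6 lower and 1 higher in KO, against 14.2% of all genes (10.7% lower and 3.53% higher). Of the 79 members 56 (70.9%) lay below 0, as did 63.2% of all genes. The median log2 change was -0.22 over the members and -0.18 over all genes. The direction of the members' median turned with the scaling and the tool. With upper quartile scaling it was 0.069 (all genes 0.072). It was 0.18 with edgeR (all genes 0.05), with 53 of 79 members above 0, and 0.15 with DESeq2 (all genes 0.01). In the authors' deposited table it was 0.16, beside 0.004 over all genes, when set as KO over WT. Scaled without the mitochondrial reads, it was -0.38 (all genes -0.32). The medians and counts below 0 of groups of members in uninjured muscle are on the RPM scale and share this limit. WT and KO libraries did not overlap for 12 members (15.2%), 11 lower and 1 higher in KO, against 21.7% of all genes (15.5% lower and 6.2% higher). At an adjusted p under 0.05, edgeR called 1 of 79 members and 0.449% of all genes, and DESeq2 called 2 members and 5.32% of all genes. Without KO uninjured replicate 3 the members' median was -0.03, that of all genes was -0.33, and 1 member passed, with 0.69% of all genes. The standard errors of the members ranged from 0.23 to 0.58, with a median of 0.32.

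In injured muscle 78 members were tested and again none passed, where 0.269% of 12625 genes did (34 genes). At an unadjusted p under 0.05 there were 11 members (14.1%), all lower in KO, against 5.26% of all genes lower and 10.3% in either direction. The median log2 change was -0.21, where all genes had 0.01, and 57 of 78 members (73.1%) lay below 0, as did 48% of all genes. WT and KO injured libraries did not overlap for 21 members (26.9%, against 16.9% of all genes), 19 lower and 2 higher in KO, where 8.63% of all genes were lower and 8.29% higher without overlap. Here edgeR called 0 members and 0.277% of all genes. DESeq2 called 6 of 78 members (Rpl29, Rpl34, Rpl35, Rps13, Rps15a and Rps27l, all lower in KO) and 3.38% of all genes. Standard errors had a median of 0.20. Without KO injured replicate 2, in which mitochondrial genes took 23.2% of the reads, 20 of 77 members passed, 19 lower and 1 higher. Of all genes 19% passed (2343 of 12312), 1175 lower and 1168 higher.

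Markers of some other cells and RNA classes also differed in level between these libraries. The 2 nuclear RNAs Malat1 and Neat1 summed to between 1632 and 3320 RPM in WT and between 555 and 1814 RPM in KO uninjured libraries. After injury they held 2160 to 3008 RPM in WT and 593, 605 and 5391 RPM in KO, with the highest value in replicate 2. The 10 immune markers summed to 71.8 to 140.5 RPM in WT and 43.5 to 71.9 RPM in KO uninjured muscle, and to 92.5 to 122 and 80.5 to 90 RPM after injury. The 10 muscle fibre markers held 120869 to 130809 RPM in WT and 179771 to 182081 RPM in KO uninjured muscle, and after injury 124372 to 159953 and 112717 to 173401 RPM, with overlap. The 6 adipocyte markers held 1209 to 1993 RPM in WT and 1633 to 3145 RPM in KO uninjured muscle, and after injury 383 to 1308 and 1334 to 2922 RPM, without overlap. The sums of the satellite cell, erythroid, endothelial, fibroblast and Schwann cell markers overlapped between WT and KO in both limbs. No marker of these lists was at 0 in all libraries of a group. Their part in the members' values was not tested, and in bulk tissue fewer cells of a type and less RNA per cell cannot be told apart.

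**Figure D3:**
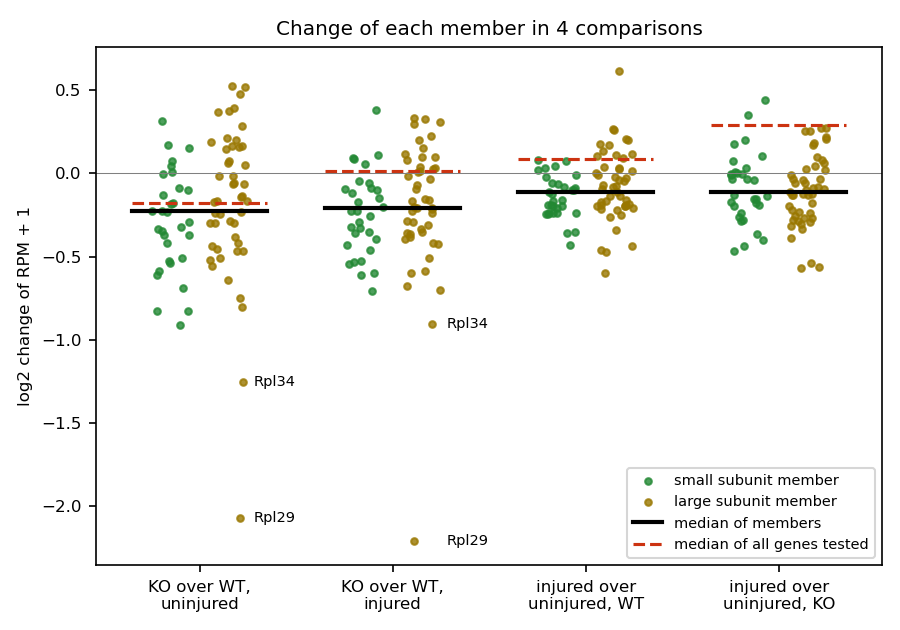
Log2 change of RPM + 1 (y axis) of each member in 4 comparisons (x axis), small subunit in green and large subunit in brown. Black lines are the medians of the members and dashed red lines the medians of all genes tested. On this scale the members' median is below that of all genes in each comparison, by least in uninjured KO against WT (-0.22 and -0.18), where it is above it with edgeR, DESeq2 and the authors' deposited values, and Rpl29 is the lowest point at -2.07 and -2.21.

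The largest difference was in Rpl29, a large subunit protein also known as a heparin-interacting protein. Rpl29 was at 85.0, 95.2 and 61.9 RPM in the WT and 23.4, 10.6 and 23.8 RPM in the KO uninjured libraries. After injury it was at 104, 103 and 72.3 RPM in the WT and 28.5, 8.96 and 26.3 RPM in the KO injured libraries. All 6 KO values lay below all 6 WT values, and animal 2 was the lowest KO animal in both limbs. This gave a log2 difference of -2.07 (SE 0.36, limma adjusted p = 0.0580) without injury and a log2 difference of -2.21 (SE 0.43, limma adjusted p = 0.153) after it. In the authors' deposited table, whose sign is WT over KO, Rpl29 had a log2 fold change of 1.94 with a q-value of 4.44e-05 in uninjured and 2.11 with a q-value of 0.00208 in injured muscle. Rpl29 passed under 8 of the other settings in uninjured and 4 in injured muscle, the replicate block left aside. In uninjured muscle these included edgeR on recovered reads (adjusted p = 0.0445) and DESeq2 (adjusted p = 6.61e-06). It also passed there with the replicate block, which joins different WT and KO animals by replicate number alone. It was the only member with a q-value under 0.05 in the authors' deposited tables.

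Rpl34, a large subunit protein whose start carries the 20-base run shown above, was at 355, 332 and 399 RPM in the WT and 194, 137 and 129 RPM in the KO uninjured libraries. After injury it was at 369.9, 286 and 381 RPM in the WT and 155, 236 and 166 RPM in the KO injured libraries. The groups did not overlap in either limb. The fits gave a log2 difference of -1.25 (SE 0.25, limma adjusted p = 0.0809) and a log2 difference of -0.91 (SE 0.23, limma adjusted p = 0.266). In the authors' deposited table its q-values were 0.107 and 0.0839. Rpl34 passed with DESeq2 in both limbs (adjusted p = 0.0217 and 0.0177). In uninjured muscle it also passed with all 12 libraries in 1 limma fit (adjusted p = 0.0272) and with limma on reads outside mitochondrial genes (0.0307). Limma with the replicate block gave 0.00974, but this block joins different WT and KO animals by replicate number alone. It called 752 of all genes, against 35 without it.

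Rpl30, which also belongs to the large subunit, was at 323, 243 and 416 RPM in the WT and 240.0, 203 and 139 RPM in the KO uninjured libraries. The highest KO value was just under the lowest WT value. After injury Rpl30 was at 283, 321 and 354 RPM in the WT and 170.0, 244 and 180.2 RPM in the KO injured libraries, again without overlap. It had a log2 difference of -0.75 (SE 0.30, limma adjusted p = 0.309) and a log2 difference of -0.70 (SE 0.20, limma adjusted p = 0.328).

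Rps27l, the paralog of Rps27 that p53 is known to induce, was at 202, 129 and 281 RPM in the WT and 132, 82.6 and 99.6 RPM in the KO uninjured libraries. The groups overlapped by 1 library, since the shallow WT replicate 2 lay under KO replicate 1. After injury it was at 146, 175 and 184 RPM in the WT and 115, 90 and 105 RPM in the KO injured libraries, with no overlap. The fits gave a log2 difference of -0.91 (SE 0.33, limma adjusted p = 0.258) and a log2 difference of -0.70 (SE 0.18, limma adjusted p = 0.269).

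**Figure D4:**
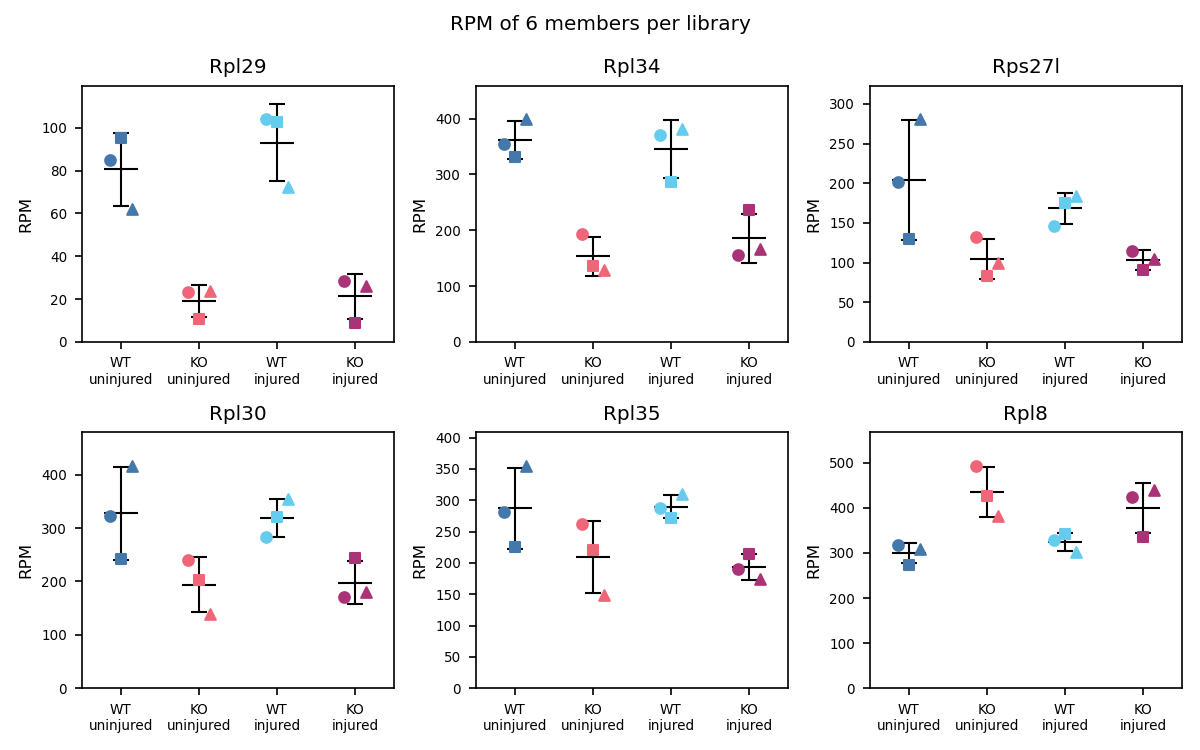
RPM (y axis, from 0) of 6 members in each of the 12 libraries, by genotype and limb. Points are libraries (circle, square and triangle for replicates 1, 2 and 3), and bars show the mean and SD of 3 libraries. KO points of Rpl29 and Rpl34 lie below all WT points, and those of Rpl8 lie above the WT points in uninjured muscle.

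Rpl29, Rpl30, Rpl34, Rps13 and Rps15a were the 5 members lower in KO without overlap in both limbs, and 14 more were so after injury alone. Of the 12214 genes tested in both limbs, 3.16% were lower without overlap in both and 5.42% after injury alone. Rpl35, a protein at the tunnel exit, was at 288, 272 and 309 RPM in the WT and 190.4, 215 and 174 RPM in the KO injured libraries. Its log2 change was -0.59 (SE 0.17, limma adjusted p = 0.316), and in uninjured muscle, where the groups overlapped, it was -0.46. Rps25, a small subunit protein needed by some viral internal ribosome entry sites, was at 439.9, 458 and 498 RPM in the WT and 288, 382 and 306 RPM in the KO injured libraries, with a log2 change of -0.52. Rps26, which lies at the mRNA exit channel, was at 284, 229 and 277 RPM in the WT and 159, 219 and 166 RPM in the KO injured libraries, with a log2 change of -0.54. Rps28, also of the small subunit, was at 210.3, 215 and 210.3 RPM in the WT and 145, 192 and 129.8 RPM in the KO injured libraries, with a log2 change of -0.46. These 4 members were without overlap in injured muscle and overlapped in uninjured muscle, and whether the change differed between the limbs was tested by the interaction, which no member passed.

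In KO, 23 of 79 members lay above 0 in uninjured (53 with edgeR) and 21 of 78 in injured muscle. Rpl8, which lies close to the peptidyl transferase centre, was at 317, 273 and 309 RPM in the WT and 493, 427 and 383 RPM in the KO uninjured libraries, with no overlap. It had a log2 difference of 0.53 (SE 0.23, limma adjusted p = 0.348). After injury it was at 328, 341 and 301 RPM in the WT and 423, 336 and 439.6 RPM in the KO injured libraries, where 1 KO library lay within the WT range. Rpl4, a tunnel protein, had log2 changes of 0.48 and 0.33, and Rps4x had -0.08 and 0.38. Rpl3 had 0.33 after injury, which became 0.067 without KO injured replicate 2 and 0.12 without WT injured replicate 2. Rpl7, a large subunit protein, was without overlap after injury, at 265, 328 and 298 RPM in the WT and 377, 330.0 and 395 RPM in the KO injured libraries.

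The stalk proteins, which recruit the translation factors, lay on both sides of 0. Rplp0, which anchors the stalk, was at 457, 286 and 574 RPM in the WT and 321, 365 and 289.6 RPM in the KO uninjured libraries. After injury it was at 378, 549.7 and 461 RPM in the WT and 342, 200.3 and 341 RPM in the KO injured libraries, lower in KO without overlap, with a log2 difference of -0.68 (SE 0.27, limma adjusted p = 0.466). Rplp1 was at 874, 794 and 725 RPM in the WT and 1383, 1561 and 691 RPM in the KO uninjured libraries, with 2 KO libraries above and 1 below all WT libraries. After injury Rplp1 was at 832, 713 and 870.1 RPM in the WT and 879, 1063 and 885 RPM in the KO injured libraries, higher in KO without overlap, with a log2 difference of 0.23 (SE 0.19, limma adjusted p = 0.721). Rplp2, the partner of Rplp1, was at 417, 333 and 411 RPM in the WT and 304, 285 and 298 RPM in the KO injured libraries, lower in KO without overlap. No stalk gene passed, and the difference between them was not tested.

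Rpl5 and Rpl11 bind the 5S rRNA and, outside the ribosome, the p53 regulator Mdm2. Rpl5 was at 305, 224 and 313 RPM in the WT and 278, 213 and 220.2 RPM in the KO uninjured libraries, and at 242, 262 and 237 RPM in the WT and 286, 253 and 284 RPM in the KO injured libraries. The groups overlapped in both limbs, with log2 changes of -0.24 and 0.15. Rpl11 was at 389.8, 212 and 332 RPM in the WT and 455, 474 and 177 RPM in the KO uninjured libraries, and at 303, 278 and 221 RPM in the WT and 256, 232 and 196 RPM in the KO injured libraries. Its KO uninjured libraries held both the highest and the lowest uninjured values.

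Other members with known roles of their own did not pass either. Rps6, the substrate of S6 kinase, had log2 changes of 0.31 in uninjured and 0.06 in injured muscle. Rps19, mutated in Diamond-Blackfan anaemia, had -0.32 and -0.23. Rpl22 had -0.13 and -0.10. Rps27a, made as a fusion with ubiquitin, had -0.23 and -0.04. Rpl38, known for its role in the translation of Hox mRNAs, had -0.80 (SE 0.47) and -0.60 (SE 0.42). Rpl38 was at 472, 491 and 369.8 RPM in the WT and 316, 461 and 110.5 RPM in the KO uninjured libraries, with KO replicate 3 the lowest library.

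Both subunits had members on either side of 0. The 31 small subunit members had a median log2 change of -0.29 in uninjured and -0.23 in injured muscle, with 25 and 26 of them below 0. Large subunit members had medians of -0.15 and -0.20, with 31 of 48 and 31 of 47 below 0. These medians were not tested against each other.

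Several members have pseudogene copies whose rows differed by genotype. The tables hold 280 rows named after a member with the ending -ps. Of these, 55 reached 1 RPM, and 58 members have at least 1 such row. Rps13, a small subunit protein, was at 268, 199 and 306 RPM in the WT and 187, 121 and 129 RPM in the KO uninjured libraries, and at 197, 198 and 255 RPM in the WT and 150.2, 124 and 152 RPM in the KO injured libraries. The row Rps13-ps1 was at 1.16, 1.06 and 1.32 RPM in the WT and 34.0, 64.1 and 13.8 RPM in the KO uninjured libraries, and at 0.975, 0.749 and 0.842 RPM in the WT and 20, 96.1 and 17.6 RPM in the KO injured libraries. The member was lower and the copy higher in every KO library, with log2 changes of -0.82 and -0.60 for the member. The copy had a log2 difference of 3.89 (SE 0.51, limma adjusted p = 0.0215) in uninjured muscle, where it passed. In injured muscle it had a log2 difference of 4.18 (SE 0.60, limma adjusted p = 0.0689) and did not pass. Its groups did not overlap in either limb.

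Rps15a, also of the small subunit, was at 351, 291 and 449 RPM in the WT and 280.1, 223 and 175 RPM in the KO uninjured libraries, and at 333, 310.2 and 375 RPM in the WT and 239, 259 and 255 RPM in the KO injured libraries. Rps15a-ps8 was at 0.0322, 0.532 and 0.132 RPM in the WT and 20.7, 29.5 and 10.9 RPM in the KO uninjured libraries, and at 0.0750, 0.0374 and 0 RPM in the WT and 14.8, 39.3 and 15.4 RPM in the KO injured libraries. The copy rose in KO in both limbs, with a log2 difference of 4.04 (SE 0.44, limma adjusted p = 0.00783) and a log2 difference of 4.40 (SE 0.38, limma adjusted p = 0.00697). The member had log2 changes of -0.69 and -0.43.

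Rps3a1, a core small subunit gene outside the naming rule, was at 431, 378 and 509 RPM in the WT and 314, 117 and 270.3 RPM in the KO uninjured libraries, and at 365, 409 and 429 RPM in the WT and 311, 107 and 303 RPM in the KO injured libraries. Rps3a3, a row of the same family, was at 0.772, 1.06 and 0.791 RPM in the WT and 169, 417 and 70.4 RPM in the KO uninjured libraries, and at 1.2, 1.16 and 0.651 RPM in the WT and 95.8, 343 and 83.4 RPM in the KO injured libraries. Rps3a3 rose in KO, with a log2 difference of 6.52 (SE 0.56, limma adjusted p = 0.00269) and a log2 difference of 6.15 (SE 0.52, limma adjusted p = 0.00697). In both limbs, KO animal 2 had the highest values of Rps13-ps1, Rps15a-ps8 and Rps3a3 and the lowest values of Rps13, Rps3a1 and Rpl29.

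With the reads of all -ps rows added to the member, the differences of these members became smaller. Rps13 went from -0.82 to -0.51 in uninjured and from -0.60 to -0.22 in injured muscle, and its groups then overlapped in both limbs. Rps15a went to -0.54 and -0.29, and its groups then overlapped in uninjured muscle and stayed without overlap after injury. For Rps3a1, adding Rps3a3 gave a log2 difference of 0.03 and 0.04. With the -ps sums, 5 of 79 members had an unadjusted limma p under 0.05 in uninjured muscle, 4 of them lower, beside 1772 of 12460 genes. In injured muscle there were 9 of 78 members, all lower, beside 662 lower of 12625 genes. Without the sums there were 7 and 11 such members. For Rpl29 and Rpl34, whose -ps rows stayed at 1.60 RPM or less, the sums gave -2.06 and -1.25 in uninjured muscle, and the groups stayed without overlap. Copies of Rpl29 and Rpl34 under other names, as Rps3a3 is for Rps3a1, were not searched, so these sums do not cover them. How the authors assigned reads that match a member and its copy is not given in the sources used here, so the split between Rps13, Rps15a, Rps3a1 and their copies is uncertain. Its part in the differences by genotype was not tested.

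**Figure D5:**
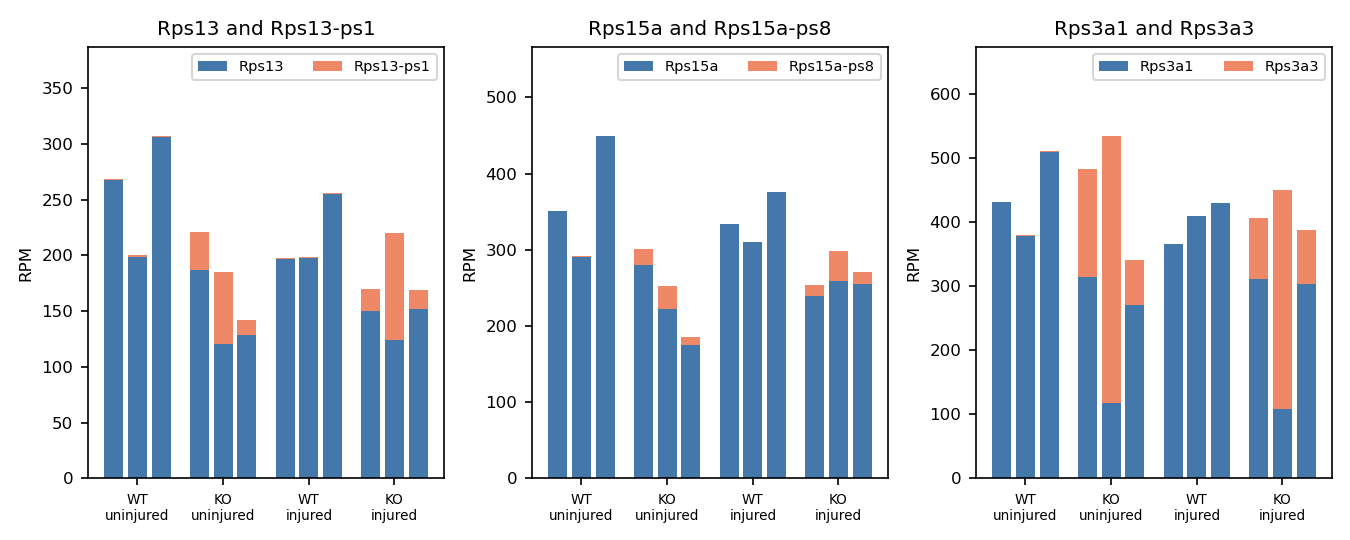
RPM (y axis, from 0) of a parent gene (blue) and a copy stacked on it (orange) in each of the 12 libraries, by genotype and limb. Each bar is a library, replicates 1 to 3 from left to right in each group. The orange part is at most 1.32 RPM in every WT library and is visible in every KO library, with the tallest in KO replicate 2.

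Paralogs were compared with their parents as log2 ratios of RPM + 1 within a library, which depend on the scaling only through the added 1. Rpl3 lies close to the peptidyl transferase centre, and Rpl3l is its striated muscle paralog. The log2 ratio of Rpl3l to Rpl3 was 3.09, 3.89 and 2.66 in WT and 3.23, 3.77 and 3.84 in KO uninjured libraries. After injury it was 3.49, 3.96 and 3.34 in WT and 3.25, 3.12 and 3.53 in KO. All groups overlapped. The mean difference of KO minus WT was 0.40 in uninjured and -0.30 in injured muscle (two-sided exact permutation p = 0.4 and 0.3, n = 3 against 3, adjusted p = 0.9 over the 12 tests of this kind).

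The log2 ratio of Rps27l to Rps27 was -1.12, -1.73 and -0.79 in WT and -1.53, -2.05 and -1.02 in KO uninjured libraries. It was -1.48, -0.80 and -1.28 and -1.27, -2.12 and -1.24 after injury. KO minus WT was -0.32 and -0.35 (two-sided exact permutation p = 0.5 and 0.6, n = 3 against 3). The smallest p that 3 against 3 libraries can give is 0.1, so no ratio could pass 0.05. Rpl39l stayed between 0 and 3.86 RPM, close to the floor of 3 reads in the shallow library, and no ratio was formed with Rpl10l, which had no reads. Rps4l stayed between 2.60 and 9.43 RPM in all 12 libraries, with overlapping groups.

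Injury was compared within each genotype over all 12 libraries, in a fit that treats the limbs of an animal as independent. The comparisons within WT and between genotypes share the WT libraries, and those within KO share the KO libraries. In WT, none of 79 members passed (0% of 13337 genes passed), and none had an unadjusted p under 0.05, where 1.29% of all genes did. With a block for the animal, 1 member had an unadjusted p under 0.05, as did 319 of the 13337 genes. The median log2 change was -0.11 and that of all genes 0.09, with 67 of 79 members below it. Injured and uninjured WT libraries did not overlap for 5 members (6.33%, against 10% of all genes), all lower after injury, where 2.54% of all genes were lower. Rpl36a, Rps12, Rps21 and Rps28 were among them. Without WT uninjured replicate 2, the shallow library, the members' median was -0.22 and 2 of 79 members had an unadjusted p under 0.05, as did 1.74% of all genes.

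Rpl3 had the largest decrease in WT, from 99.5, 57.4 and 116 to 65.9, 42.6 and 66.7 RPM, a log2 change of -0.60 (SE 0.35). In KO it went from 77.2, 78.6 and 41.6 to 61.4, 104 and 58.6 RPM, a log2 change of 0.19. The interaction of Rpl3 was 0.78 and did not pass. Rpl41, one of the smallest proteins known, went from 441, 249 and 504 to 213, 288 and 337 RPM in WT, and Rpl39 had a log2 change of -0.46. The largest increases were Rpl23a (0.62, SE 0.53), Rpl15 (0.27) and Rpl18 (0.26). Rpl15 turned to -0.058 without WT uninjured replicate 2.

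In KO, again none of 79 members passed (0% of 13337 genes) and none had an unadjusted p under 0.05, where 3.51% of all genes did. With a block for the animal, 1 member had an unadjusted p under 0.05, as did 889 of the 13337 genes. The median log2 change was -0.11 and that of all genes 0.29, with 77 of 79 members below it. With upper quartile scaling the median of all genes was -0.02 and that of the members -0.49. Injured and uninjured KO libraries overlapped for all 79 members, where 6.74% of all genes did not overlap. Rpl11, Rpl28 and Rpl41 had the largest decreases (-0.57, -0.56 and -0.54). Rpl11 went from 455, 474 and 177 to 256, 232 and 196 RPM, so KO animals 1 and 2 were lower and animal 3 was higher after injury. Without KO uninjured replicate 3 these 3 were at -1.03, -0.98 and -1.04, and with another library left out they came as near to 0 as -0.32, -0.36 and -0.29. Rps4x, Rps4l and Rpl7 had the largest increases (0.44, 0.35 and 0.27). Without KO uninjured replicate 3 the members' median was -0.32 (all genes 0.43) and 23 of 79 members had an unadjusted p under 0.05, all lower, where 1.55% of all genes were lower at that p. With all libraries, 11 members in edgeR and 17 in DESeq2 had an unadjusted p under 0.05, against 2.99% and 4.52% of all genes.

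For the difference between the genotypes in their injury change, none of 79 members passed (0% of 13337 genes) and none had an unadjusted p under 0.05 (1.56% of all genes). With a block for the animal, 1 member had an unadjusted p under 0.05, as did 280 of the 13337 genes. The median was -0.01, and 0.20 over all genes. It was 0.13 with scaling to reads outside mitochondrial genes (all genes 0.33) and -0.30 with upper quartile scaling (all genes -0.04). Neither edgeR nor DESeq2 called a member here or for injury in either genotype. The largest positive values were those of Rpl3 (0.78, SE 0.49), Rps4x (0.47, SE 0.53) and Rpl5 (0.39, SE 0.29). Rpl23a (-0.45, SE 0.75) and Rpl28 (-0.40, SE 0.44) were among the largest negative ones.

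No gene of the other translation lists passed in limma in these comparisons. Of 15 TOP genes that encode no ribosomal protein, 0 passed, with a median of 0.02 in uninjured and 0.14 in injured KO against WT. Eef2, the elongation factor that moves the ribosome along the mRNA, had log2 changes of 1.03 (SE 0.34) and 0.85 (SE 0.43). Eef2 was at 507, 433 and 662 RPM in the WT and 1034, 715 and 1679.9 RPM in the KO uninjured libraries. Of 30 initiation and elongation factors 0 passed, with medians of 0.00 and 0.14. Of 54 genes of ribosome assembly and RNA polymerase I 0 passed, with medians of -0.10 and -0.05, and Mdn1, a remodelling ATPase, had -1.2 and -0.62. Of 14 genes of mTORC1 and TOP control 0 passed, with medians of 0.05 and 0.22, where Deptor, which binds mTOR, had -0.73 in uninjured muscle. At an unadjusted p under 0.05 in uninjured KO against WT there were 1 higher and 1 lower TOP gene, 1 higher factor, 1 higher and 2 lower assembly genes and 1 higher mTORC1 gene. After injury there were 1 higher TOP gene and 1 higher and 2 lower assembly genes. Of all genes, 3.53% were higher and 10.7% lower at that p in uninjured muscle, and 10.3% reached it in either direction after injury. DESeq2 called Eef1g, Eef2, Eef1a2, Eif4g1, Ncl and Eif4ebp1 in uninjured and Eef1a1 in injured muscle, and edgeR called none of these lists' genes. Over all genes DESeq2 called 5.32% in uninjured and 3.38% in injured muscle.

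Of 77 mitochondrial ribosomal protein genes 0 passed, with medians of -0.03 in uninjured and -0.22 in injured KO against WT. The second is close to the -0.21 of the cytosolic members, and all genes had 0.01. Mrpl47 had -1.21 (SE 0.34) in uninjured and Mrpl55 -0.73 (SE 0.16) in injured muscle. At an unadjusted p under 0.05 there were 1 higher and 7 lower genes in uninjured and 9 lower genes in injured muscle. Of all genes, 3.53% were higher and 10.7% lower at that p in uninjured muscle, and 5.26% were lower in injured muscle. DESeq2 called Mrpl12 and Mrpl47 in uninjured and Mrpl55 and Mrps17 in injured muscle, beside 5.32% and 3.38% of all genes. None of these genes was called by edgeR. Of the core genes outside the naming rule 0 passed, with a median of 0.04 over 8 tested in uninjured and -0.34 over 9 tested in injured muscle, and 1 lower gene at an unadjusted p under 0.05 in either limb; edgeR and DESeq2 called 0.

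Myf6 peaks were compared with the member starts, which are on the same chromosome coordinates, since mm10 is GRCm38 and its patches leave these unchanged. A peak summit lay within 1 kb of the start of 3 of 60 members (5%, 95% Wilson interval 1.71 to 13.7) and of 4.23% of the 10004 tested genes. Within 5 kb there were 4 members (6.67%) and 10.9% of tested genes. The ChIP signal comes from 1 library of cultured myotubes and has no replicate check. The 3 members were Rpl3l, with a summit 99 bases before its start and a fold enrichment of 4.84, Rpl41, 158 bases before its start with 11.3, and Rpl10a, 370 bases before its start with 5.48. Fold enrichments are the authors' values.

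The peaks of Rpl3l (131 bases) and Rpl41 (174 bases) lay wholly inside the promoter windows and are shown on the strand of the gene, with CANNTG, the general E-box, in capitals.
Rpl3l (chr17:24727647-24727777, plus strand): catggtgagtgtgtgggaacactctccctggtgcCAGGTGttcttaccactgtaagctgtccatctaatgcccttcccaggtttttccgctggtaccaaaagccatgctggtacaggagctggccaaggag
Rpl41 (chr10:128549243-128549416, minus strand): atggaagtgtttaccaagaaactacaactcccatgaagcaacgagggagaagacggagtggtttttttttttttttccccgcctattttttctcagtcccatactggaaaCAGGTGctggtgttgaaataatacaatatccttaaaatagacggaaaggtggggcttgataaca
Each held a single match, CAGGTG. Matches to CANNTG were in 55% of the 60 members' windows and in 67.8% of those of the tested genes. The CAGCTG of Rpl3l lies outside its peak, 20 bases before the start, as the next window shows with that match in capitals.
Rpl3l (chr17:24727786-24727845, plus strand): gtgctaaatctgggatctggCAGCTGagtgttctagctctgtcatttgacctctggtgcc
Rpl3l was at 856, 865 and 738 RPM in the WT and 732, 1084 and 612 RPM in the KO uninjured libraries, and at 749, 679.7 and 686 RPM in the WT and 594, 909 and 688 RPM in the KO injured libraries. Rpl3l, with a Myf6 peak at its start, had log2 changes between KO and WT of -0.06 (SE 0.28) and 0.03 (SE 0.21), with overlapping groups. Rpl41 had -0.17 and -0.24, and Rpl10a had -0.02 and 0.12, also with overlap. Rpl29, which had the largest difference between genotypes, is not among the 60 members with a window.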

How the data were processed

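Total RNA was extracted with Trizol and made into libraries with the TruSeq kit, per the labels' protocols. The authors deposited RPM per gene, with their own log2 fold change and p-value and q-value columns per the file headers. HISAT2 2.1.0, SAMtools, featureCounts, DESeq2, Bowtie 1.1.0 and MACS2 2.1.0.20140616 and the builds mm10 and GRCm38.p5 are listed, with no role, per the submitters' processing notes. Strand use in counting and the treatment of multiply matching reads are not given in the sources used here. Peaks came from MACS2, per the file headers, with the authors' signal height, −log10 p and q and fold enrichment deposited per peak.

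RPM values were whole multiples of 1 read within 0.1 read for 100% of the values tested, so reads were recovered. RPM sums to 1000000 per library over the same genes in both tables, so libraries of both were set side by side. The main test, run on log2(RPM + 1), came from limma 3.58.1 in R 4.3.3 with an intensity trend, over genes at 1 RPM or more in at least 3 of the fitted libraries, with Benjamini-Hochberg adjustment over all genes tested and a threshold of 0.05. A fold on this scale understates the change of low genes. Genotype was fitted on the 6 libraries of a limb, and injury and the interaction on all 12, with the limbs of an animal taken as independent. Alternatives were other scalings, a pseudocount of 0.1, other filters, limma without trend, a replicate block, edgeR 4.0.16 and DESeq2 1.42.0 on recovered reads, the authors' q-values and each library left out. Scripts were tested on simulated data.

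Members and lists were chosen with earlier results of these data known. Named genes were the stalk genes, the paralog pairs, 7 members with known separate roles, the 3 largest changes in each direction per comparison (some are not reported here), members past the threshold, the 3 members with most and fewest reads and the 3 that followed the family most and least. Members without overlap that are named besides, and the copies of Rps13, Rps15a and Rps3a1, were chosen after their values were seen. IDs of all 82 members matched the list of gene names without their version, 63 of them with it. For injury, limbs with the same number in the library names were read as the same animal, which the labels do not spell out; their deviations had correlations of 0.28, -0.23 and 0.02 in WT and 0.02, 0.50 and 0.63 in KO. Libraries of a group are separate animals by their numbers. Marker lists for other cell types are reported as summed RPM: satellite cell markers held 22.3 to 40.8 RPM, erythroid 151 to 583, adipocyte 383 to 3145, endothelial 154 to 399, fibroblast 371 to 1344 and Schwann cell 80.2 to 1113 RPM over the 12 libraries.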

Additional observations from a re-analysis of the deposited data

How the results depend on the processing

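No member passed under the design used here in any of the 5 comparisons, and for injury and the interaction the count stayed 0 under every alternative run. In uninjured KO against WT, 1 member passed with upper quartile scaling, TMM scaling, edgeR and the authors' q-values, 2 with scaling to reads outside mitochondrial genes, DESeq2 and all 12 libraries in 1 fit, and 0 to 1 with a library left out. The same settings called 162, 96, 56, 331, 205, 663 and 167 of all genes, in that order. In injured KO against WT, 6 passed with DESeq2, 1 with all 12 libraries and with the authors' q-values, and 0 to 20 with a library left out, beside 427, 56 and 225 of all genes for the first 3. Over all genes the uninjured count of 35 ranged from 1 (no filter) to 752 (replicate block), and the injured count of 34 from 0 to 2343 (without KO injured replicate 2). The cause was not tested. WT and KO numbers join different animals, with same-number correlations of 0.04, 0.26 and 0.37 in uninjured and -0.45, -0.60 and -0.30 in injured muscle; with the replicate block 3 members passed in uninjured and 0 in injured muscle, and in the injury comparisons the block of animals changed no call.

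Leaving out a library, the members' median ranged from -0.36 to -0.03 in uninjured and -0.33 to -0.16 in injured KO against WT, from -0.22 to -0.05 for injury in WT, from -0.32 to 0.01 for injury in KO and from -0.23 to 0.14 for the interaction. With upper quartile scaling it was 0.069 in uninjured KO against WT (0.18 with edgeR, 0.15 with DESeq2, 0.16 in the authors' deposited table), -0.49 for injury in KO and -0.30 for the interaction, and TMM gave -0.39 for injury in KO. Per 1000000 reads outside mitochondrial genes, the summed means were 32311 in WT uninjured, 26660 in KO uninjured, 27531 in WT injured and 24492 in KO injured libraries. A fold enrichment of at least 10 left 1 member with a peak within 1 kb. Single values turned for Rpl15 in WT injury (-0.058 to 0.52 with a library left out, negative without WT uninjured replicate 2), for Rps4x in KO injury (-0.034 to 0.71) and in the interaction (-0.010 to 0.73, both negative without KO uninjured replicate 2), for Rpl23a in the interaction (-0.96 to 0.0074, positive without KO injured replicate 2) and for Rpl7 in KO injury (-0.10 with upper quartile scaling, -0.00102 with TMM, -0.00712 with edgeR and -0.0388 with DESeq2). Leaving out a library moved the KO minus WT log2 ratio of Rpl3l to Rpl3 between 0.12 and 0.74 in uninjured and -0.43 and -0.11 in injured muscle. The shallowest library, with 1880087 reads, limits values under 1.60 RPM.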

Other observations

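Rps12, a small subunit protein, was at 846, 795 and 783 RPM in WT and 554, 766 and 220.3 RPM in KO uninjured libraries. All KO values lay below the WT values, and the third KO library was far below the others. Its log2 change was -0.83 (SE 0.42, limma adjusted p = 0.406). Rps27, the parent of Rps27l, was at 441, 431 and 485 RPM in WT and 383, 346 and 203 RPM in KO uninjured libraries, also without overlap, with a log2 change of -0.59. Rpl14, Rpl35a, Rpl36a and Rpl37a were the other 4 members lower in KO without overlap in uninjured muscle alone. In uninjured muscle 11 of 79 members (13.9%) were lower in KO without overlap, no larger a share than the 15.5% of all genes.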
